A study of Mus musculus with 6 samples.

Results

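The MYC, MAX and MXD network was followed in mouse regulatory T (Treg) cells cultured with or without sorafenib (Sora), a multikinase inhibitor given in liver cancer. The genes were the 10 whose symbols name them as Myc, Mycn, Mycl, Max, Mxd1, Mxd3, Mxd4, Mxi1, Mnt and Mlx. All 10 stood in the table of 22939 genes, and 9 of them passed the filter on low counts, as did 13463 genes in all. Naive CD4+ T cells of Foxp3-GFP mice, which express GFP where Foxp3 is active, were activated through CD3 and CD28 and polarised with TGF-β1 while IFN-γ and IL4 were blocked. GFP-positive cells were then sorted from the cultures. The 3 ctrl-Treg libraries came from such cultures without Sora and the 3 Sora-Treg libraries from cultures with Sora. Both groups therefore carry the reporter allele and were selected on it, and the Sora dose, the day of harvest and the age of the mice are not given for these libraries.

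MYC is a basic helix-loop-helix leucine zipper transcription factor that binds DNA only as a dimer with MAX, mostly at the E-box CACGTG, and activates genes of ribosome production, metabolism and cell division. The MXD proteins (Mxd1, Mxd3, Mxd4 and Mxi1, which is also called Mxd2) and MNT compete for MAX at the same sites and bring in SIN3 and histone deacetylases, so that the same genes are repressed. MLX pairs with the glucose-responsive Mondo proteins and with some MXD proteins and MNT. In T cells, Myc is induced by receptor stimulation and is needed for the growth and metabolic change that precede division.

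Promoter sequences, from 250 bases before to 50 bases after the start site, were found in RefSeq (GRCm38.p6) for 9 of the 10 genes, with 11 promoters among them, and Myc had none in that table. Because the network's own E-box could lie in its genes, CACGTG was searched, which reads the same on both strands. It was present once in each of 4 genes, Max, Mxd4, Mnt and Mlx, and 7.15% of all 32851 promoters held it. The 60-base windows around these matches are printed 5′ to 3′ on the strand of the gene, with CACGTG in capitals. They lie at chr12:76962239-76962298 (Max, minus strand), chr5:34187897-34187956 (Mxd4, minus strand), chr11:74830774-74830833 (Mnt, plus strand) and chr11:101087223-101087282 (Mlx, plus strand).
Max: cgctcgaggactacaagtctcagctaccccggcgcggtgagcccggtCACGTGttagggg
Mxd4: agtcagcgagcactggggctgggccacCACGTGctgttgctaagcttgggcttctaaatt
Mnt: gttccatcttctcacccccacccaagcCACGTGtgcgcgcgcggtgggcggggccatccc
Mlx: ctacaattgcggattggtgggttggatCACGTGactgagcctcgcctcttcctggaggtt
The motif began 3 bases before the start site in Max, 40 in Mlx, 123 in Mnt and 219 in Mxd4. Of these 4 genes, Max and Mnt were higher and Mxd4 and Mlx lower in Sora-Treg cells, as described further on. A match is a run of letters and was not examined for binding.

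Mxd1, which had the largest change among the network genes with high counts, held no CACGTG in its promoter. Its 250 bases before the start site (chr6:86669160-86669409, minus strand) are printed because they held CCAAT 4 times, in capitals. That motif was searched on both strands, and 37.4% of all promoters held any match. The share of promoters that held it 4 times was not counted. Among the other network genes CCAAT occurred 2 times each in Mxd4 and Mlx, both lower in Sora-Treg cells, and in none of the rest with a promoter.
Mxd1: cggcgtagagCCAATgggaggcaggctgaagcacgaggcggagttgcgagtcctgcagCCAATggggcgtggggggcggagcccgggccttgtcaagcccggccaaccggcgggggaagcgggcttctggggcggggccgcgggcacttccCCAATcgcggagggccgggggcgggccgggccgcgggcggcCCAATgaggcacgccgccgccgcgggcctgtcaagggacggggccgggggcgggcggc

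Library totals lay between 30727686 and 37717324 counts, at which a floor of 3 counts equals 0.0795 to 0.0976 CPM (counts scaled to a common library total), for counting error only. The libraries matched the label of Treg cells. Foxp3 averaged 259 ± 8.99 CPM without and 272 ± 4.75 CPM with Sora (SD, n = 3), with overlap between the groups. Among 10 Treg and T cell markers, 8 were called higher, 1 (Nrp1) lower and 1 (Ikzf2) in neither direction. The shares over all tested genes were 29.7% called higher and 29.9% called lower. Transcripts of 12 myeloid markers summed to 239, 245 and 152 CPM without Sora and to 147, 180 and 146 CPM with Sora. Of these, 10 were tested and 6 were called lower, beside 29.9% of all tested genes, with the groups overlapping in all 10. Lyz2 stood at 47.5, 47.9 and 12.6 against 5.64, 21.2 and 4.66 CPM. The sums of 6 B cell markers were 9.90 to 10.99 against 6.12 to 7.68 CPM, and those of 2 CD8 genes 13.2 to 15.1 against 12.6 to 13.8 CPM. Of 4 natural killer markers, Klrb1c and Klra7 did not exceed 1 count per library, Ncam1 had 3, 3 and 2 against 21, 5 and 11 counts, and Eomes, which activated T cells can also express, was higher beyond 2-fold (2.21 ± 0.120 against 4.53 ± 0.436 CPM, edgeR adjusted p = 2.02e-05). Their part in the results was not tested, and the 4 erythroid markers never summed above 0.157 CPM. Results are therefore also given with ctrl-Treg library 3, whose myeloid sum lay within the range of the Sora-Treg libraries, as the only control.

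Changes are log2 fold changes of Sora-Treg over ctrl-Treg cells with their standard error (SE), tested with edgeR's quasi-likelihood test and called at an adjusted p under 0.05, and CPM values are scaled by TMM, which evens out library composition. Of the 9 tested network genes, 6 were called higher (Myc, Mycn, Max, Mxd1, Mxi1 and Mnt) and 3 lower (Mxd3, Mxd4 and Mlx). Of all 13463 tested genes 59.6% were called, 29.7% higher and 29.9% lower, so that a call by itself was common. The groups did not overlap in 9 of the 9 network genes and in 63.7% of all tested genes. Only Mycn and Mxd1 also exceeded 2-fold, both higher, as did 11.3% of all tested genes, of which 6.30% of the total were higher and 4.97% lower. The median log2 fold change was 0.36 over the 9 genes and -0.0035 over all tested genes. Mycn passed the filter only through its Sora-Treg counts, so its call and the counts over the 9 genes are a description. In bulk libraries fewer cells with a transcript and less transcript per cell cannot be told apart.

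**Figure D1:**
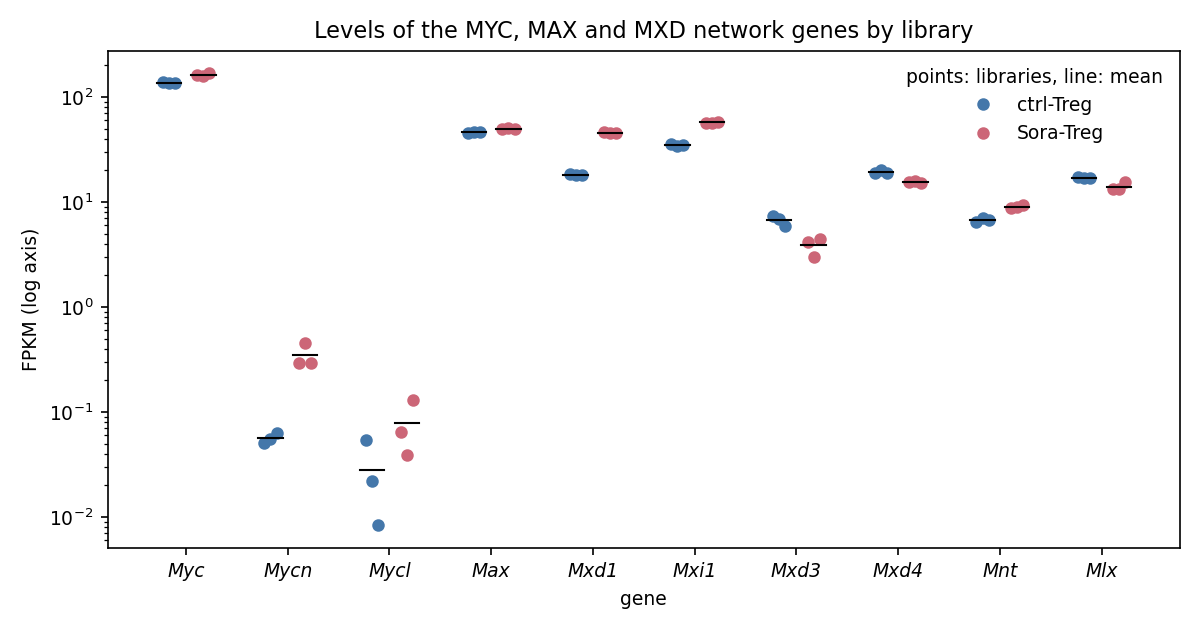
FPKM (log axis) of the 10 network genes in each library, with ctrl-Treg libraries in blue, Sora-Treg libraries in red and the group mean as a line (n = 3). Myc stands above the other genes in both groups, Mxd1 and Mxi1 separate clearly between the groups, and Mycn and Mycl lie below 1 FPKM.

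Levels of different genes were compared in FPKM, which divides by transcript length and library total. FPKM is not scaled for composition, so rises read smaller than in scaled CPM (Max by a factor of 1.08 against 1.17). In ctrl-Treg cells Myc led at 137 ± 2.12 FPKM, followed by Max at 46.3 ± 0.596 and Mxi1 at 35.0 ± 0.867 FPKM (SD, n = 3). Mxd4 at 19.2 ± 0.699 and Mxd1 at 18.2 ± 0.224 FPKM came next, and Mlx lay between 16.8 and 17.1 FPKM, close together but without overlap between neighbours. Mnt and Mxd3 stood at 6.77 ± 0.254 and 6.75 ± 0.703 FPKM and overlapped. Mycn at 0.0562 ± 0.00592 and Mycl at 0.0282 ± 0.0237 FPKM were the lowest and also overlapped. Myc was thus the dominant Myc-family transcript, with 99.9% of the summed Myc, Mycn and Mycl FPKM without Sora and 99.7% with it.

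The order differed in Sora-Treg cells. Myc was again first, at 162 ± 5.23 FPKM, but Mxi1 at 57.2 ± 0.750 FPKM stood above Max at 50.01 ± 0.235 FPKM, and Mxd1 had moved from the fifth to the fourth place at 45.3 ± 0.533 FPKM (SD, n = 3). The ranges of Max and Mxd1 did not overlap in Sora-Treg libraries. Mxd4 and Mlx, at 15.5 ± 0.235 and 13.9 ± 1.27 FPKM, overlapped there, and Mnt at 8.99 ± 0.288 and Mxd3 at 3.86 ± 0.788 FPKM no longer did.

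Myc, the member that drives growth, was modestly higher in Sora-Treg cells. Its CPM was 319, 317 and 310.4 without Sora and 404, 394 and 419 with Sora. The groups lay well apart relative to their spread, on 9912 to 14932 counts per library. edgeR put the log2 change at 0.36 ± 0.03 (SE, adjusted p = 1.87e-10), a fold of 1.29, and 79.4% of all tested genes had a lower value.

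Mycn, the paralog best known from the developing nervous system, was barely detected in ctrl-Treg cells. It had 5 counts in each of the 3 ctrl-Treg libraries and 24, 39 and 28 counts in the Sora-Treg libraries. That is 0.127, 0.137 and 0.157 against 0.791, 1.22 and 0.787 CPM, with every Sora-Treg library above every ctrl-Treg library. On the log2 scale this was 2.71 ± 0.46 (SE), with an edgeR adjusted p of 2.79e-05, a fold of 6.54 that rests on 15 against 91 counts in all. As Mycn entered this test only through the group in which it is high, that p is a description. With a filter of at least 1 count in any library, which does not look at the groups, the change was 2.69 ± 0.52 (SE). That run rests on the same 15 against 91 counts and is no firmer. Even so, the mean level in Sora-Treg cells was 0.345 FPKM, where Myc had 162 FPKM. Mycl, the third paralog, had 8, 3 and 1 counts without Sora and 8, 5 and 19 with Sora. It was not tested, and its groups overlapped near the floor.

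Max, the shared dimer partner, was slightly higher. Its CPM was 116, 119 and 119 without Sora and 137, 139 and 137 with Sora, with no overlap. By edgeR the log2 change came to 0.23 ± 0.03 (SE, adjusted p = 3.37e-06), the smallest rise among the called network genes.

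Mxd1, an antagonist that is typically induced as cells leave the cell cycle and differentiate, had the largest change of the well-counted network genes. Its CPM was 83.6, 82.1 and 82.6 without Sora and 226, 223 and 222 with Sora. The 6 values fell into 2 tight groups with a gap far wider than either. The difference by edgeR was 1.43 ± 0.03 in log2 units (SE, adjusted p = 2.40e-20), a fold of 2.70, and 96.2% of all tested genes had a lower value. Every alternative run kept this call, with log2 fold changes between 1.27 and 1.44.

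Mxi1, the antagonist with the highest level, rose as well. Its CPM was 159, 152 and 157 without Sora and 273, 276 and 281 with Sora. Here too the groups were far apart and the libraries within a group close. In log2 units edgeR gave 0.83 ± 0.03 (SE, adjusted p = 1.66e-16), a fold of 1.77. Mxi1 had 3 promoters in RefSeq, none with CACGTG or CCAAT, and counts per gene do not tell its transcripts apart.

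Mxd3, the family member associated with dividing cells, fell. Its CPM was 9.12, 8.68 and 7.45 without Sora and 5.64, 4.02 and 6.01 with Sora. All Sora-Treg values were lower, but the spread within the groups was wide, on 128 to 359 counts. edgeR put the log2 change at -0.69 ± 0.14 (SE, adjusted p = 1.69e-04). With ctrl-Treg library 3 as the only control it was -0.51 with an adjusted p of 0.0515, and the log2 fold change lay between -0.81 and -0.53 with any 1 library left out. In a mouse gene annotation (GENCODE M21), Mxd3 overlaps Prelid1 on the opposite strand, and Prelid1 was at 348 ± 1.19 against 445 ± 13.4 CPM (SD, n = 3). Whether counting used strand is not stated, so reads of the overlap could belong to either gene.

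Mxd4 was lower by a small margin. Its CPM was 21.4, 22.7 and 21.2 without Sora and 19.0, 19.3 and 18.7 with Sora, so the groups lay near each other without overlapping. On the log2 scale this was -0.20 ± 0.07 (SE), with an edgeR adjusted p of 0.0187. The call was lost without ctrl-Treg library 2 (adjusted p = 0.0914) or Sora-Treg library 3 (adjusted p = 0.0588), and with ctrl-Treg library 3 as the only control (adjusted p = 0.245).

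Mnt, the broadly expressed antagonist, rose. Its CPM was 49.5, 53.6 and 51.6 without Sora and 72.4, 73.2 and 77.0 with Sora, again without overlap. By edgeR the log2 change came to 0.53 ± 0.04 (SE, adjusted p = 6.06e-10), a fold of 1.44.

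Mlx was at 41.9, 41.3 and 42.0 CPM without Sora and 34.9, 35.2 and 41.0 CPM with Sora. Sora-Treg library 3 lay just under the ctrl-Treg values and the other 2 well below. The difference by edgeR was -0.17 ± 0.06 in log2 units (SE, adjusted p = 0.0154). Without Sora-Treg library 1 or 2 the adjusted p was 0.0888 or 0.0716, with ctrl-Treg library 3 as the only control it was 0.113, and without Sora-Treg library 3 the log2 fold change was -0.25. Mlx overlaps Psmc3ip on the opposite strand at its 3′ end, and Psmc3ip fell from 6.57 ± 0.405 to 3.35 ± 0.325 CPM (SD, n = 3).

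**Figure D2:**
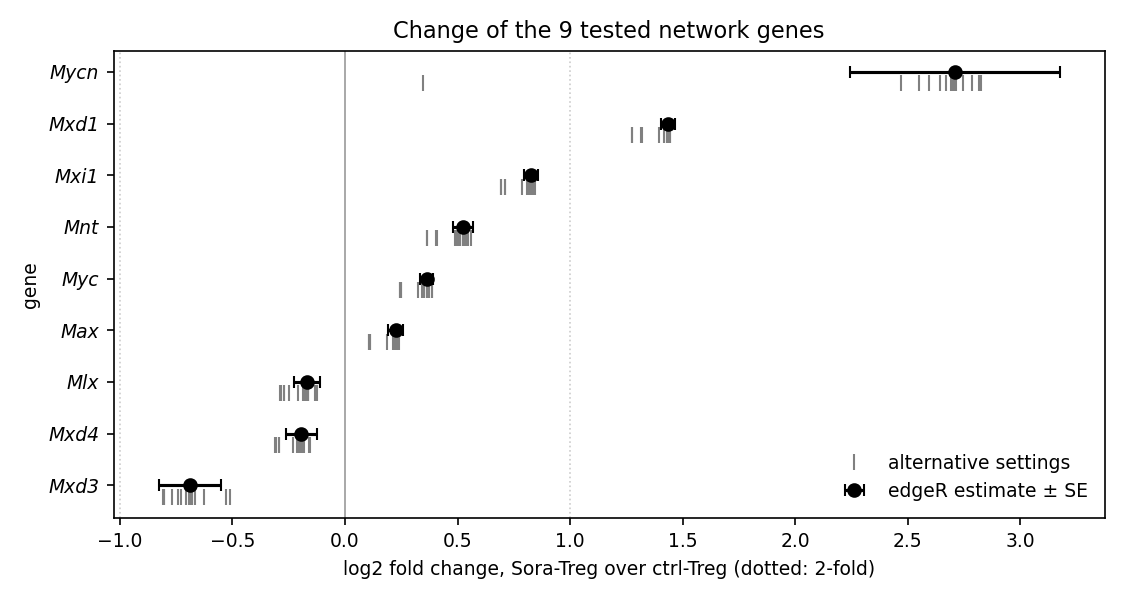
Log2 fold change of Sora-Treg over ctrl-Treg cells for the 9 tested network genes, from edgeR with its standard error (black, 3 against 3 libraries), with the values under the alternative settings as grey ticks and 2-fold as dotted lines. Mycn and Mxd1 lie beyond 2-fold, and the tick of Mycn at 0.35 is limma on log2(FPKM + 1) without a filter, where low values are compressed.

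As MXD and MYC proteins share MAX, the summed FPKM of Mxd1, Mxd3, Mxd4 and Mxi1 was divided by that of Myc, Mycn and Mycl within each library. The ratio was 0.580, 0.575 and 0.579 without Sora and 0.752, 0.766 and 0.729 with Sora. Each Sora-Treg library was above each ctrl-Treg library, and Myc-family FPKM exceeded MXD FPKM in all 6. The means were 0.578 ± 0.00242 and 0.749 ± 0.0190 (SD, n = 3), higher by a factor of 1.30. No test was applied to this ratio, since an exact permutation test of 3 against 3 cannot go below 0.1. The scale mattered for its size, because the factor was 1.51 from scaled CPM, in which long transcripts weigh more and the ratio was 0.853 against 1.29. With Mnt added to the antagonists the factor was 1.28.

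The make-up of the antagonists differed between the groups. Mxd1 held 23.0% ± 0.262 of the summed MXD FPKM without Sora and 37.2% ± 0.506 with Sora (SD, n = 3). The MXD sum was 79.1 ± 1.30 against 122 ± 0.850 FPKM, while the Myc-family sum was 137 ± 2.13 against 163 ± 5.20 FPKM. Max FPKM per summed FPKM of its partners (Myc family, MXD genes and Mnt) was 0.202, 0.209 and 0.212 without Sora and 0.170, 0.175 and 0.166 with Sora, which did not overlap. These are transcript ratios, and the proteins were not measured here.

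**Figure D3:**
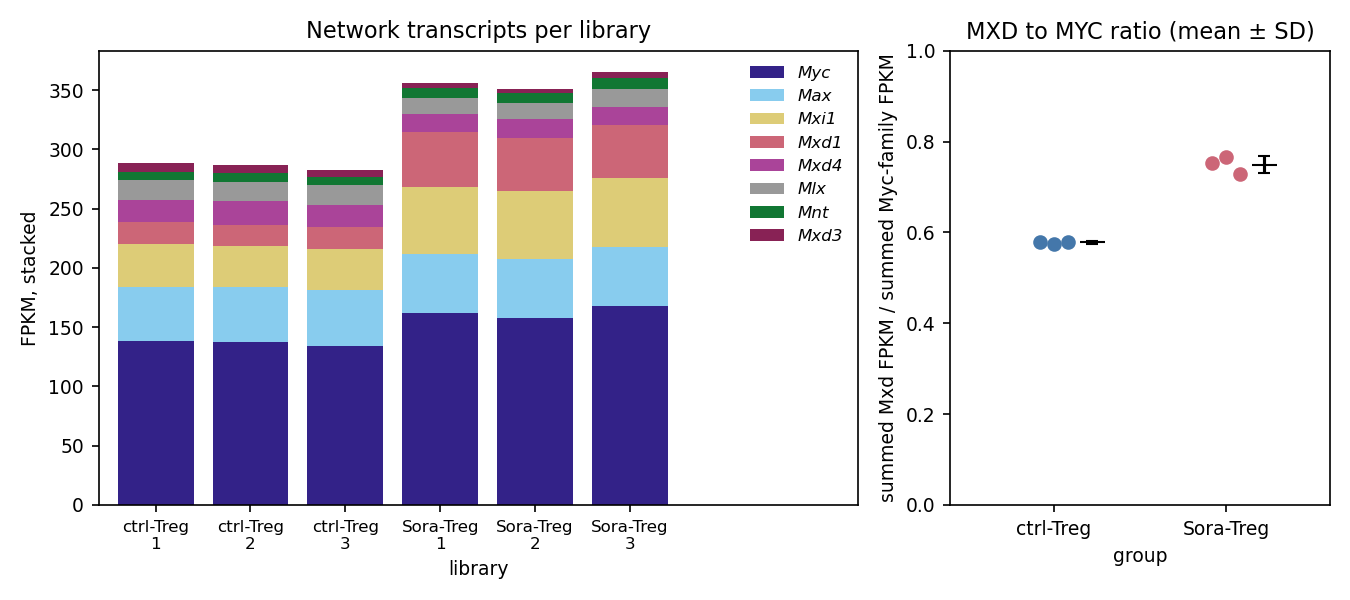
Left, stacked FPKM of 8 network genes in each of the 6 libraries, without Mycn and Mycl, which are too low to show. Right, summed MXD FPKM over summed Myc-family FPKM per library, with mean ± SD (n = 3), which lies at 0.578 without and 0.749 with Sora. Among the MXD genes, Mxd1 and Mxi1 have higher FPKM with Sora, while Mxd3 and Mxd4 have lower FPKM.

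Other factors that share partners or E-boxes with the network moved little. Of 6 listed, 5 were tested, 2 were called higher, 2 lower and 1 in neither direction, where 59.6% of all tested genes were called. The largest change among the 5 was 0.27 on the log2 scale. Usf2 and Usf1, E-box factors that do not use MAX, were higher by 0.27 ± 0.04 and 0.22 ± 0.06 (SE, edgeR adjusted p = 8.95e-06 and 0.00164). With libraries scaled by their totals Usf1 was not called. Mga, a large MAX partner that represses germline genes, was lower at -0.13 ± 0.04 (SE, edgeR adjusted p = 0.00428). Its change was -0.08 without Sora-Treg library 1, and it was not called with ctrl-Treg library 3 as the only control (adjusted p = 0.0543). Mlxip (MondoA), the main partner of MLX outside the liver, stood at 97.3 ± 0.392 against 91.7 ± 1.12 CPM (SD, n = 3), with an edgeR adjusted p of 0.0462 that rose above 0.05 when any 1 of the 6 libraries was left out. Zbtb17 (MIZ-1), through which MYC represses genes, was at -0.02 ± 0.05 in log2 units (edgeR adjusted p = 0.720), but it was called lower at -0.14 with libraries scaled by their totals (adjusted p = 0.0159). Mlxipl (ChREBP) was too low to test.

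The classic targets of MondoA and MLX, both arrestin-family genes that limit glucose uptake, went opposite ways. Txnip was at 80.9, 82.7 and 82.2 CPM without Sora and 123, 119.9 and 126 CPM with Sora, without overlap. In log2 units edgeR gave 0.58 ± 0.04 (SE, adjusted p = 2.40e-12). Arrdc4 was at 3.07 ± 0.408 against 1.99 ± 0.202 CPM (SD, n = 3), a change of -0.62 ± 0.21 in log2 units (SE, edgeR adjusted p = 0.0118) that was not called without ctrl-Treg library 2 or with ctrl-Treg library 3 as the only control (adjusted p = 0.0692 and 0.135).

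Coactivators that MYC recruits showed 2 genes higher, 6 lower and 5 in neither direction among 13 tested, with a median log2 fold change of -0.09. These were 15.4% higher and 46.2% lower, where 29.7% of all tested genes were called higher and 29.9% lower. Taken in either direction, the calls were near the 59.6% of all tested genes. Ruvbl1 fell by 0.56, Actl6a by 0.46 and Kat2a (GCN5) by 0.43 on the log2 scale, and Hcfc1 by 0.25, while Ruvbl2 and Wdr5 were the remaining 2. Cdk9, the kinase of the elongation factor P-TEFb, was higher by 0.25 and Trrap, the scaffold of the acetyltransferase complexes, by 0.15, though Trrap was not called with libraries scaled by their totals. Kat5 (TIP60) and Ep400, the acetyltransferase and remodelling ATPase of a complex that Trrap is part of, were at 0.09 and 0.06 on the log2 scale and were not called.

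Corepressors used by the MXD proteins and by MYC went in both directions. Of 15 tested, 5 were higher, 6 lower and 4 in neither direction, where 29.7% of all tested genes were called higher and 29.9% lower. The median log2 fold change of the list was 0.03 and turned negative when libraries were scaled by their totals. Sap30 and Ing1, subunits of the SIN3 complex, were higher by 0.55 and 0.37, and Ncor1, a scaffold of HDAC3 complexes, by 0.20. Dnmt3a, the DNA methyltransferase that MYC can bring to promoters, was lower at -0.54, Rbbp7 at -0.28 and Hdac2 at -0.26. Sin3a, the scaffold that the MXD proteins contact directly, fell by 0.15 on the log2 scale, and Sin3b was not called.

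Genes that control MYC protein stability went in both directions, with 5 higher, 6 lower and 7 in neither direction of 18 tested and a median log2 fold change of 0.01. That too is near the share of all tested genes that were called, 59.6%. Pim2 was the only one beyond 2-fold, at 118 ± 4.05 against 244 ± 5.18 CPM (SD, n = 3), a change of 1.05 ± 0.03 in log2 units (SE, edgeR adjusted p = 1.14e-17). It and Pim1, higher by 0.43, are kinases that phosphorylate and stabilise MYC. Usp28, a deubiquitinase of MYC, was higher by 0.27 and was not called with libraries scaled by their totals. Among stabilisers that fell, Cip2a, an inhibitor of the phosphatase PP2A, was at -0.68 and Aurka, a kinase best known from mitosis, at -0.51. Fbxw7, the ubiquitin ligase subunit that marks MYC for degradation, was at 28.2 ± 2.44 against 30.8 ± 2.40 CPM (SD, n = 3) and was not called. The split depended on scaling, with 2 higher and 11 lower when libraries were scaled by their totals.

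Genes known to be induced by MYC were mostly lower in Sora-Treg cells. Of 66 tested, 54 (81.8%) were called lower, 7 (10.6%) higher and 5 in neither direction, where 29.9% of all tested genes were called lower and 29.7% higher. The median log2 fold change was -0.37, and no gene of the list was a call beyond 2-fold. Hspd1, the mitochondrial chaperonin, was at 518, 523 and 528 CPM without Sora and 266, 287 and 263 CPM with Sora. Its groups were far apart, with a change of -0.94 ± 0.03 in log2 units (SE, edgeR adjusted p = 2.04e-17). Ung, a DNA repair glycosylase, was at -0.88 ± 0.08 and Utp20, a factor of small ribosomal subunit assembly, at -0.83 ± 0.05 (SE, edgeR adjusted p = 1.55e-09 and 3.48e-13). Across the alternatives 48 to 55 genes of the list were called lower, and the median lay between -0.49 and -0.35.

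The 7 genes of that list that were higher were Hk2, Ldha, Tfb2m, Odc1, Aimp2, Ccnd2 and Eif4a1. Hk2 (hexokinase 2), the first enzyme of glycolysis, was at 440.3, 445 and 441 CPM without Sora and 696, 699 and 716 CPM with Sora. edgeR put the log2 change at 0.67 ± 0.02 (SE, adjusted p = 2.18e-16). Ldha (lactate dehydrogenase A), the last step of glycolysis to lactate, was higher by 0.38 ± 0.02, and Odc1, the first enzyme of polyamine synthesis, by 0.34 ± 0.03 (SE, edgeR adjusted p = 4.76e-13 and 1.77e-10). Tfb2m, a mitochondrial transcription factor, was higher by 0.35 ± 0.09 (SE, edgeR adjusted p = 0.00135). With libraries scaled by their totals 4 genes were higher. Both enzymes of glycolysis are also known targets of the hypoxia factor HIF.

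Genes known to be repressed by MYC showed no common direction. Of 12 tested, 4 were higher, 5 lower and 3 in neither direction, where 29.7% of all tested genes were called higher and 29.9% lower. The list median was -0.35 and became 0.14 when genes under 1 CPM were left out. Ndrg1, a stress and differentiation gene, was at 416, 412 and 416 CPM without Sora and 1245, 1234 and 1254 CPM with Sora, a change of 1.58 ± 0.02 in log2 units (SE, edgeR adjusted p = 1.43e-23). Klf6, a zinc finger factor, was higher by 1.38 ± 0.04 and Cdkn1b (p27), an inhibitor of cyclin-dependent kinases, by 0.57 ± 0.05 (SE, edgeR adjusted p = 9.01e-19 and 3.00e-10). Cdkn1a (p21), a related inhibitor, was lower at -0.29, as were the growth arrest genes Gadd45a at -0.41 and Gadd45b at -0.78 on the log2 scale.

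A pair of low genes of the repressed list were singled out after their values were seen. Ccnd1 (cyclin D1) had 206, 213 and 146 counts without Sora and 8, 19 and 11 counts with it, without overlap (edgeR adjusted p = 2.33e-11). It passed the filter only with its ctrl-Treg counts, the group in which it is high. Its p, the lack of overlap and its place among the lower genes of the list are therefore a description. Slc11a1, a transporter of macrophages, had 69, 81 and 8 against 11, 27 and 7 counts, and its groups overlapped although it was called lower (edgeR adjusted p = 0.0150). It was high in the same 2 ctrl-Treg libraries in which the myeloid markers were high. The part of other cells in its value was not tested.

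**Figure D4:**
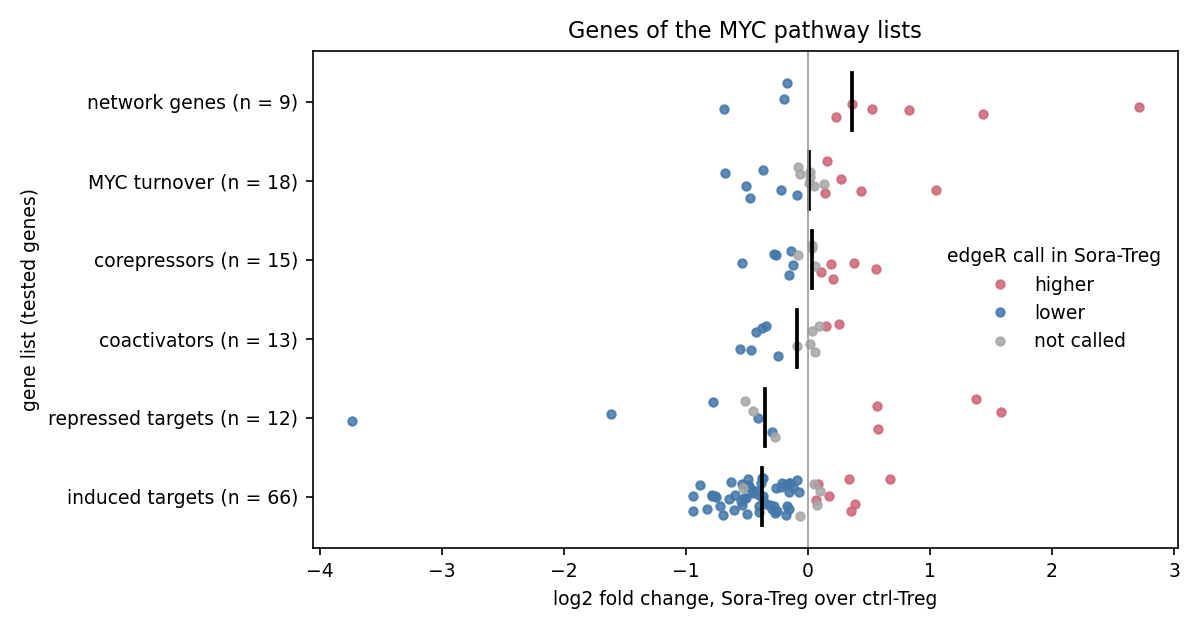
Log2 fold change of Sora-Treg over ctrl-Treg cells for each tested gene of the network and of 5 lists of MYC cofactors and targets, coloured by the edgeR call at an adjusted p under 0.05, with the list median as a black bar. Of the 66 induced targets 54 are called lower, with a median of -0.37, while the network genes have a median of 0.36.

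Scaling by library totals in place of TMM moved the median of all genes by -0.12 and the called genes from 3994 higher and 4028 lower to 2862 higher and 5614 lower. Under that scaling the 6 network genes called higher and the 3 called lower kept their calls and directions. With ctrl-Treg library 3 as the only control, the same 6 higher and 3 lower genes kept their directions. For the 3 lower genes the calls were lost there. Their log2 fold changes were -0.51 (Mxd3), -0.16 (Mxd4) and -0.18 (Mlx), against -0.69, -0.20 and -0.17 with all libraries. That fit also had fewer libraries and larger SEs, and the cause of the lost calls was not tested.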

How the data were processed

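RNA-seq libraries of 3 ctrl-Treg and 3 Sora-Treg samples were compared, grouped by their titles. The labels do not say whether replicates came from separate mice or cultures, so p-values measure the spread between these samples, which may be technical. Pairs within a group differed by more than sampling noise (chi-square per degree of freedom 3.48 to 6.23).

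The deposited files held raw counts and FPKM values of 22939 gene symbols. FPKM proved to be the count over 1 length per gene and over the library total (largest relative difference 1.64e-06). The methods of the study name Bowtie2, GRCm38 and an expectation-maximization estimate, while the submitters' processing notes name fastp, HISAT2, HTSeq, R 3.2.0, DESeq2 and GRCm39. The sources differ, so coordinates are printed only for the promoter windows, on the build of their RefSeq table, and strand settings were not given in the sources used here. Of the symbols, 97.5% were found in RefSeq GRCm38.p6, which supplied the promoters.

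Counts were tested with the quasi-likelihood test of edgeR 4.0.16 (R 4.3.3, TMM, filterByExpr, Benjamini-Hochberg over 13463 genes, biological coefficient of variation 4.29%), after the code had been tested on simulated data. Alternatives changed the scaling (RLE, upper quartile or library size alone), the filter (genes with at least 1 count in any library or 1 CPM in 3 libraries) or the tool (DESeq2 1.42.0, robust fitting, limma 3.58.1 on log2(FPKM + 1) or log2(FPKM + 0.1)), added a replicate block or left out each library. The use of ctrl-Treg library 3 as the only control was chosen after seeing the data. Same-numbered libraries did not deviate together (correlations of deviations over genes of -0.0438, 0.0591 and 0.0299), so the numbers were not taken as pairs.

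The network genes and lists were chosen with earlier results of these data known. Named were the 10 network genes, the other network factors and Mondo targets, and from each further list the 3 highest and 3 lowest log2 fold changes among called genes whose mean log2 CPM was at least 3. Other genes were named after their values were seen. One listed coactivator (Supt5h) was not analysed here, and single values of some listed genes are not reported.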

Additional observations from a re-analysis of the deposited data

How the results depend on the processing

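Myc, Mycn, Max, Mxd1, Mxi1 and Mnt kept direction and call under each of their alternatives (18 each, 15 for Mycn, which the FPKM and CPM filters removed). Mxd4 lost its call without ctrl-Treg library 2 or Sora-Treg library 3 (log2 fold changes with 1 library left out from -0.21 to -0.16), and Mlx without Sora-Treg library 1 or 2 (-0.25 to -0.13). With ctrl-Treg library 3 as the only control, which leaves 4 libraries, Mxd3 (-0.51), Mxd4 (-0.16) and Mlx (-0.18) kept direction but were not called. Their SEs were 0.21, 0.10 and 0.09 there, against 0.14, 0.07 and 0.06 with all libraries. Their adjusted p was at most 0.0515, 0.245 and 0.113 over all alternatives.

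The lists moved more. Among other network factors, 1 was higher with library-size scaling and all 3 limma fits, and 1 was lower with RLE scaling, the CPM filter, DESeq2, the replicate block and any library left out (range 1 to 1), and 0 with the only control. Of the Mondo targets 0 were lower with both filtered limma fits, without ctrl-Treg library 2 (range 0 to 1) and with the only control. With library-size scaling and limma, 1 coactivator was higher, 3 corepressors (2 without a filter), 2 turnover genes higher and 11 lower, and 4 induced targets higher (3 without a filter). The only control gave 3 corepressors and 4 induced targets higher. The factor between the MXD to MYC ratios was 1.51 from scaled CPM and 1.28 to 1.31 with 1 library left out.

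List medians near 0 changed sign. Corepressors were at -0.0041 with upper quartile scaling, -0.08 with library-size scaling and each limma fit (-0.0817, -0.0781, -0.0814 and -0.0781), and -0.0019 without Sora-Treg library 1 (0.0450 at most with 1 left out). Turnover genes were at -0.0258 with upper quartile scaling, -0.10 with library-size scaling (-0.103) and each limma fit (-0.101, -0.103 and -0.101), -0.0027 with genes of at least 1 count, -0.0017 without Sora-Treg library 2 (0.0226 at most with 1 left out) and -0.0114 with the only control. Repressed targets were at 0.14 with the CPM filter and 0.02 with both filtered limma fits (0.0168 and 0.0221). Zbtb17, not called, was at 0.0051 without ctrl-Treg library 3 and down to -0.0478 with another left out, but was called lower with library-size scaling (-0.14) and all 3 limma fits (-0.13 to -0.14, adjusted p from 0.0169 to 0.0261). The cause was not tested.

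The replicate block as a paired analysis changed 1 call named here, Mlxip (adjusted p = 0.0533), and gave 4057 genes higher and 4064 lower. Beyond 2-fold, limma on log2(FPKM + 1) called 274 genes higher and 189 lower, on log2(FPKM + 0.1) 373 and 371, and without a filter 274 and 185, against 848 and 669 with edgeR. Depth limits Mycn and Mycl, which had at most 39 and 19 counts in a library.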
